A study of Mus musculus with 20 samples.

Results

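The nuclear genes of respiratory complexes II to V were followed in kidneys of mice that received cisplatin with or without 7-HCG, the compound 7-hydroxycoumarin-β-D-glucuronide. A gene was included when its symbol in the deposited count table was Sdha, Sdhb, Sdhc or Sdhd, or began with Uqcr, with Atp5, or with Cox and a digit from 4 to 8. This rule found 46 of 25638 genes, with 4 genes of complex II, 8 of complex III, 18 of complex IV and 16 of complex V. Enough reads for a test were present for 44 of these 46 genes and for 14858 genes in all. The 2 genes without enough reads, Cox7b2 and Cox8c, encode isoforms known from testis, and their highest value in any kidney was 0.158 CPM (counts scaled to library size by TMM, the trimmed mean of M values).

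Oxidative phosphorylation turns the energy of respiratory substrates into ATP at the inner mitochondrial membrane. Complex II, or succinate dehydrogenase, oxidises succinate and passes electrons to ubiquinone, and all of its subunits are nuclear-encoded. Complex III passes those electrons to cytochrome c, complex IV passes them to oxygen, and complex V uses the resulting proton gradient to make ATP. Complexes III, IV and V combine nuclear-encoded subunits with a few that the mitochondrial genome encodes. The proximal tubule of the kidney depends on this pathway for solute transport and is the main site of cisplatin injury.

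Polyadenylated mRNA was sequenced from whole kidneys of 20 male C57BL/6J mice aged 6 to 8 weeks and weighing 18 to 22 g. There were 4 groups of 5 animals. One group was gavaged with 7-HCG at 15 mg/kg and another at 30 mg/kg, both once a day for 5 days and both with cisplatin. The cisplatin group was gavaged with PBS in place of 7-HCG. In these 3 groups cisplatin was injected into the peritoneum at 10 mg/kg on day 3, while the control group was gavaged with PBS and injected with saline. Kidneys were taken 72 h after the injection. No group received 7-HCG without cisplatin, so an effect of the compound alone cannot be told apart from its effect on the response to cisplatin.

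Library totals ranged between 10714532 and 49602115 counts, and 3 counts corresponded to between 0.0497 and 0.375 CPM. The 13 mRNAs of the mitochondrial genome took 5.33% ± 1.56 of the counts in the 15 mg/kg group, 6.82% ± 1.12 in the 30 mg/kg group, 42.8% ± 29.0 in the cisplatin group and 33.0% ± 7.75 in controls (SD, n = 5 each). Cisplatin replicates 9 and 10 stood apart with 77.7% and 70.6%. Control replicates 2 and 5 had summed CPM of 300.2 and 1370 for the 8 markers of adipose tissue, against 60.6 to 91.3 in the other 3 controls. The tubular markers Lrp2 and Slc34a1 were read in all 20 libraries.

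The promoters of 34 of the 46 genes had an entry in the RefSeq promoter table on GRCm38.p6, in a window of 250 bases before the transcription start and 30 bases after it. The motif of the factor NRF1, searched as GCGCA, then any base, then GCGC, matched on either strand in 10 of the 34 promoters, or 29.4%, against 4.98% of the promoters of 27025 genes. The motif of ETS factors such as GABP, written CCGGAAG, matched in 12, or 35.3%, against 9.48% of all promoters. The CCAAT box, written CCAAT, matched in 19, or 55.9%, against 39.7%. None of the 3 motifs contains another. NRF1 and GABP are textbook activators of respiratory genes. A match describes letters in a window and not a bound site.

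The promoters of 5 genes are shown because the results below turn on them: Sdhd, Uqcrc1 and Atp5b had the smallest p of their complexes in the 15 mg/kg comparison, and Cox6b1 and Cox6b2 encode the ordinary and the testis isoform of 1 subunit, of which Cox6b2 alone was called in cisplatin against control. Each is printed 5′ to 3′ along the gene's strand with motif matches in capitals. Sdhd (chr9:50603820-50604099, minus strand) had an NRF1 match that began 79 bases before the start and an ETS match 46 bases before it. Uqcrc1 (chr9:108936398-108936677, plus strand) had an NRF1 match that began 6 bases into the transcript. Atp5b (chr10:128083057-128083336, plus strand) had 5 CCAAT matches and neither of the other motifs. Cox6b1 (chr7:30626085-30626364, minus strand) had an ETS match and 3 CCAAT matches. Cox6b2 (chr7:4753065-4753344, minus strand) had 3 CCAAT matches and neither of the other motifs.
Sdhd: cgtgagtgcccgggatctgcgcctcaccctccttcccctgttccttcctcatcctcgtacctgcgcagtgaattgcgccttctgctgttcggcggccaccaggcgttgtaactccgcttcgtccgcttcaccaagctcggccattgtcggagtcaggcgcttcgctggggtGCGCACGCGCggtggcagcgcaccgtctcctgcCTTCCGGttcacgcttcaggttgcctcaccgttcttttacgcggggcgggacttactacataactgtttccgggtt
Uqcrc1: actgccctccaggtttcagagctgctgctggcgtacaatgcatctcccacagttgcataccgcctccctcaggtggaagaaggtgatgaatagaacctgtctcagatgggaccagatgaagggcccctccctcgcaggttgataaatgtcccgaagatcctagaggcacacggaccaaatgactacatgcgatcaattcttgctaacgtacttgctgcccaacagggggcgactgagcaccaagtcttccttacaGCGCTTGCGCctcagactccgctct
Atp5b: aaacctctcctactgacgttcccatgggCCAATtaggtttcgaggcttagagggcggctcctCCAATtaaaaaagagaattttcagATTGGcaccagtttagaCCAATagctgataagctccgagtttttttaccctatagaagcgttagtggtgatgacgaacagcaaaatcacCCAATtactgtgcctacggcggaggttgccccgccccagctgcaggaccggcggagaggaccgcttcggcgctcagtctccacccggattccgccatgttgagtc
Cox6b1: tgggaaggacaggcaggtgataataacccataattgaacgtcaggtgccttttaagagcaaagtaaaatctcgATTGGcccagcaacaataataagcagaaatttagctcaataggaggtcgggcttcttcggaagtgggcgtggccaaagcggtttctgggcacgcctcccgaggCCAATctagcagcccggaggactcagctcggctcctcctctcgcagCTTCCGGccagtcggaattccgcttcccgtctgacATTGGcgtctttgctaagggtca
Cox6b2: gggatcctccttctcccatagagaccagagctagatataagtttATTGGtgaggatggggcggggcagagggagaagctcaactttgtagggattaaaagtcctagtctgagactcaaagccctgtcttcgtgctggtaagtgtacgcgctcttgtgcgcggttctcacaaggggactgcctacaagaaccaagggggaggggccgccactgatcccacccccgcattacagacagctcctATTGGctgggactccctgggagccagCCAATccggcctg

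Many of these mRNAs were higher when cisplatin was given with 7-HCG. In the 15 mg/kg group against the cisplatin group, 32 of the 44 tested genes rose and none fell, at an adjusted p below 0.05 in edgeR's quasi-likelihood test over all 14858 genes. Of all tested genes, 18.9% rose and 18.6% fell in that comparison. In the 30 mg/kg group against the cisplatin group, 17 of the 44 rose and none fell, while 14.7% of all tested genes rose and 13.2% fell. All 17 had also risen at 15 mg/kg, 15 more rose at 15 mg/kg without passing at 30 mg/kg, and 12 passed at neither dose. The 2 comparisons share the cisplatin animals. The median log2 fold change of the 44 genes was 1.06 at 15 mg/kg and 0.63 at 30 mg/kg, against -0.05 and 0.00 over all tested genes. With the trend of transcript length removed from each library (the length offset), a setting added after the data were seen, these medians were 0.46 and 0.37. Without cisplatin replicates 9 and 10 the median at 30 mg/kg was 0.34, with 33 of the 44 signs positive, against 42 with all libraries.

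The counts were also split by complex, beside 18.9% of all tested genes that rose at 15 mg/kg and 14.7% at 30 mg/kg. At 15 mg/kg, 4 of 4 tested genes of complex II rose, 6 of 8 of complex III, 8 of 16 of complex IV and 14 of 16 of complex V. At 30 mg/kg the counts were 3 of 4, 3 of 8, 3 of 16 and 8 of 16. The 3 of 16 for complex IV, or 18.8%, lay near the share of all tested genes. The 5 animals of the 15 mg/kg group lay above all 5 cisplatin animals for 13 genes, where 10.6% of all tested genes did so. For 11 genes the 5 animals of the 30 mg/kg group did, where 11% of all tested genes did so. The 46 mRNAs together took 2.62% ± 0.27 of the counts outside the mitochondrial genome's mRNAs at 15 mg/kg, 2.31% ± 0.21 at 30 mg/kg, 1.73% ± 0.42 with cisplatin and 1.99% ± 0.25 in controls (SD, n = 5 each).

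**Figure D1:**
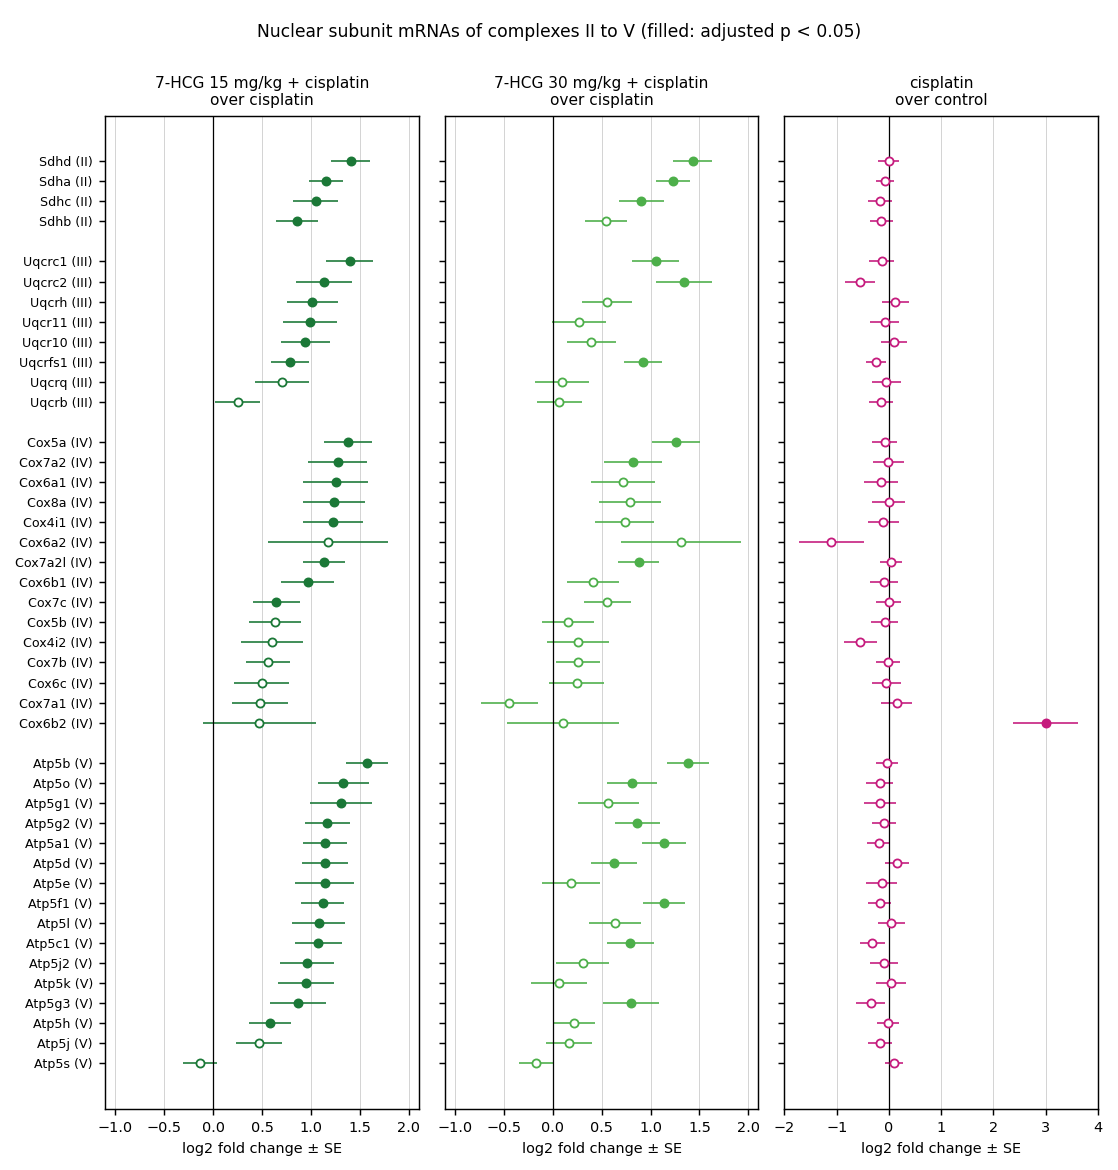
Log2 fold change with its SE for 43 of the 44 tested genes, in rows by complex, in the 15 mg/kg 7-HCG group over the cisplatin group, the 30 mg/kg 7-HCG group over the cisplatin group, and the cisplatin group over controls. Filled points passed an adjusted p of 0.05. Cox8b, with a log2 fold change of -7.06 in cisplatin over control, is not drawn. Most points of the first panel lie near 1, those of the second spread between -0.44 (Cox7a1) and 1.43 (Sdhd), and in the third only Cox6b2 passed.

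Other values moved with these counts. Of 11 proximal tubule markers, 8 rose at 15 mg/kg and 7 at 30 mg/kg against cisplatin, with medians of 1.28 and 1.29 on the log2 scale. Their summed level was 7248 to 12008 CPM at 15 mg/kg, 6943 to 17403 at 30 mg/kg, 4339 to 6230 with cisplatin and 3083 to 9169 in controls, and none of the 11 was at 0 in any library. Fewer proximal tubule cells and less RNA per cell cannot be told apart in whole kidney, and the part of the markers in the results was not tested. All 4 neutrophil markers fell against cisplatin at both doses. Their sum was 0.957 to 3.85 CPM at 15 mg/kg, 1.26 to 4.15 at 30 mg/kg and 2.07 to 3.99 in controls. With cisplatin it was 14.6 and 49.9 CPM in replicates 9 and 10, and 6.75, 3.44 and 3.30 CPM in replicates 2, 3 and 6. The part of the neutrophil markers was not tested. Without cisplatin replicates 9 and 10, 25 genes rose at 15 mg/kg and 10 at 30 mg/kg. Scaling by library totals alone left 19 and 11 genes. Calls over all tested genes also change with the setting and are not set beside these counts. The lower counts are therefore not shown to be particular to these genes.

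All 4 complex II mRNAs rose at 15 mg/kg and 3 of them at 30 mg/kg. Sdha encodes the flavoprotein that oxidises succinate. Its values, like all lists of 5 here, follow the order of the replicate numbers. It stood at 468, 367, 496, 464 and 467 CPM in the 15 mg/kg kidneys and at 550.2, 455, 447, 484 and 443 CPM in the 30 mg/kg kidneys. It stood at 176, 242, 206, 209 and 182 CPM in the cisplatin kidneys and at 158, 215, 179, 270.2 and 241 CPM in control kidneys. All 10 kidneys with 7-HCG lay above all 10 without it. Relative to cisplatin the log2 fold change was 1.16 ± 0.17 (SE) at 15 mg/kg with an adjusted p of 0.000167, and 1.23 ± 0.17 at 30 mg/kg with an adjusted p of 0.000277 (edgeR).

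Sdhd and Sdhc encode the membrane anchors that bind ubiquinone. Sdhd, whose promoter is printed above, stood at 232, 221, 297, 388 and 253 CPM at 15 mg/kg and at 393, 255, 272, 244 and 248 CPM at 30 mg/kg. It stood at 89.6, 128, 94.9, 104 and 107 CPM with cisplatin and at 89.1, 99.1, 87.6, 135 and 115 CPM in controls. Again no kidney with 7-HCG overlapped one without it. Over cisplatin the log2 fold change was 1.41 ± 0.20 at 15 mg/kg (adjusted p = 0.000123) and 1.43 ± 0.20 at 30 mg/kg (adjusted p = 0.000249, edgeR). Sdhc averaged 423 ± 83.8 CPM at 15 mg/kg, 384 ± 77.5 at 30 mg/kg, 205 ± 52.6 with cisplatin and 230.2 ± 71.4 in controls (SD, n = 5 each). It rose by 1.05 ± 0.23 and 0.91 ± 0.23 over cisplatin on the log2 scale at the lower and the higher dose.

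Sdhb encodes the iron-sulfur protein that links the flavoprotein to the anchors. It stood at 405, 591, 521, 634 and 433 CPM at 15 mg/kg and at 596, 388, 348, 344 and 406 CPM at 30 mg/kg. It stood at 239.9, 353, 281, 232 and 319 CPM with cisplatin and at 311, 287, 208, 414 and 352 CPM in controls. The 15 mg/kg kidneys lay above the cisplatin kidneys, while the 30 mg/kg kidneys overlapped them. Sdhb rose at 15 mg/kg (0.86 ± 0.22, adjusted p = 0.00444), and at 30 mg/kg its log2 fold change of 0.55 ± 0.21 had an adjusted p of 0.06 (edgeR). Sdhb and the other complex II genes did not pass between the doses: the log2 fold change of 30 mg/kg over 15 mg/kg for Sdhb was -0.31 ± 0.21 (adjusted p = 0.709).

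**Figure D2:**
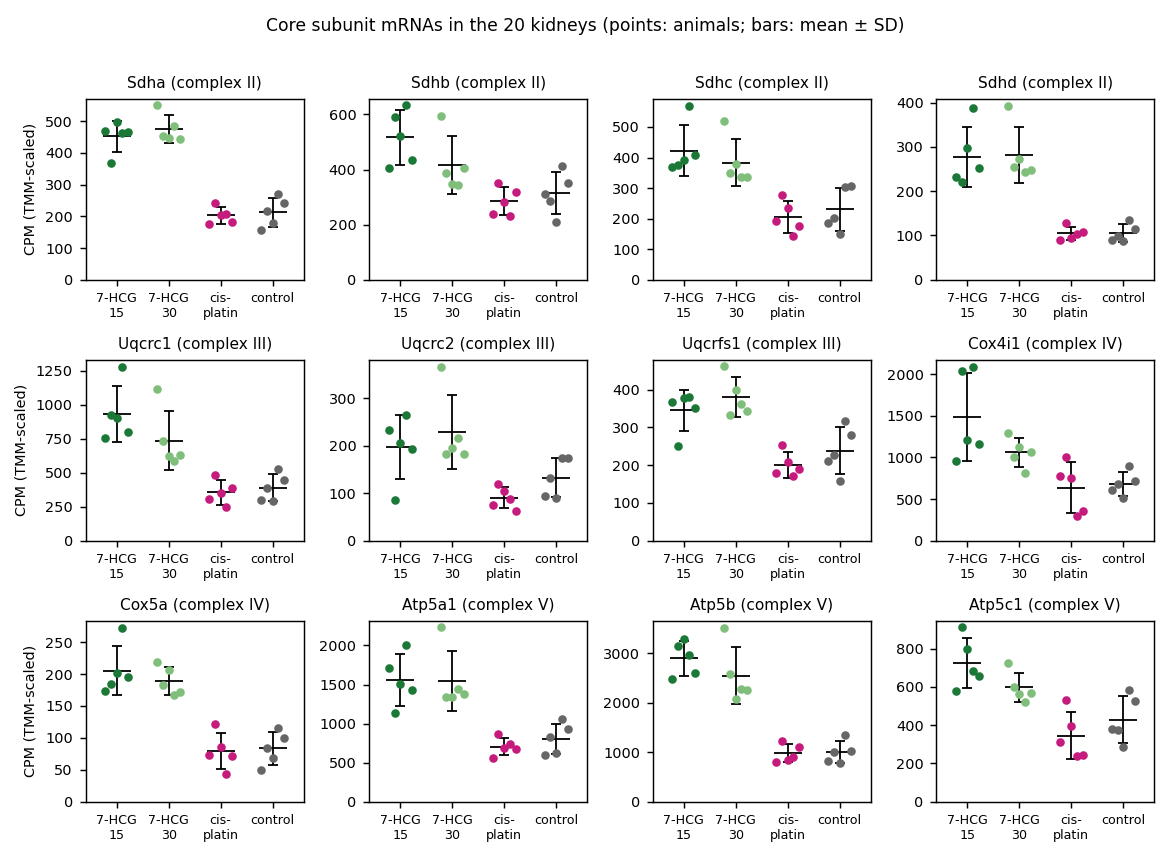
CPM of 12 core subunit mRNAs in each of the 20 kidneys, with the mean and SD of the 15 mg/kg 7-HCG, 30 mg/kg 7-HCG, cisplatin and control groups. In Sdha, Sdhc, Sdhd, Uqcrc1, Cox5a, Atp5a1 and Atp5b every kidney with 7-HCG lies above every cisplatin kidney. Cox4i1, Uqcrc2 and Uqcrfs1 overlap the cisplatin kidneys at 15 mg/kg, and Sdhb, Cox4i1 and Atp5c1 at 30 mg/kg.

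In complex III the core and Rieske subunits rose at both doses. Uqcrc1 encodes core protein 1 of the complex. It stood at 758, 929, 907, 1279.5 and 800.1 CPM at 15 mg/kg and at 1114, 732, 623, 589 and 631 CPM at 30 mg/kg. It stood at 305, 485, 353, 245 and 388 CPM with cisplatin and at 300.5, 387, 290.4, 529 and 449.8 CPM in controls. Neither dose overlapped the cisplatin or the control kidneys. The log2 fold change over cisplatin was 1.39 ± 0.24 at 15 mg/kg (adjusted p = 0.000366) and 1.05 ± 0.24 at 30 mg/kg (adjusted p = 0.00392, edgeR).

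Uqcrc2 encodes core protein 2. It stood at 234, 86.1, 207, 265 and 194 CPM at 15 mg/kg and at 365, 184, 196, 216 and 182 CPM at 30 mg/kg. It stood at 74.8, 119, 105, 88.6 and 63.4 CPM with cisplatin and at 93.5, 132, 89.2, 174 and 174 CPM in controls. One kidney at 15 mg/kg, replicate 2, lay within the cisplatin range. Uqcrc2 rose by 1.13 ± 0.29 at 15 mg/kg (adjusted p = 0.0047) and by 1.34 ± 0.29 at 30 mg/kg (adjusted p = 0.0027, edgeR).

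Uqcrfs1 encodes the Rieske iron-sulfur protein. It stood at 368, 251, 377, 381 and 352 CPM at 15 mg/kg and at 463, 333, 399, 361 and 344 CPM at 30 mg/kg. It stood at 178, 254, 209, 171 and 189.7 CPM with cisplatin and at 209.7, 227, 157, 317 and 279 CPM in controls. At 15 mg/kg replicate 2 was again the lowest and fell just below the highest cisplatin kidney. Relative to cisplatin the log2 fold change was 0.79 ± 0.20 at 15 mg/kg (adjusted p = 0.00437) and 0.92 ± 0.20 at 30 mg/kg (adjusted p = 0.00268, edgeR).

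Of the 5 small subunits of complex III, 3 were called against cisplatin at 15 mg/kg and none at 30 mg/kg. Uqcrh, the acidic hinge protein, rose at 15 mg/kg (1.01 ± 0.26), as did Uqcr11 (0.99 ± 0.28) and Uqcr10 (0.94 ± 0.25). At 30 mg/kg none of these 3 passed, and their log2 fold changes were 0.55, 0.27 and 0.40. Uqcrq and Uqcrb, which lie close to cytochrome b, passed at neither dose. Uqcrq had a log2 fold change of 0.70 with an adjusted p of 0.0514 at 15 mg/kg and of 0.10 at 30 mg/kg, and Uqcrb had 0.25 and 0.07 (edgeR). Per kilobase of transcript, Uqcrq was the highest of the 8 genes in controls at 1258 CPM and Uqcrc2 the lowest at 70.0 CPM.

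In complex IV, 8 of 16 tested genes rose at 15 mg/kg and 3 at 30 mg/kg, beside 18.9% and 14.7% of all tested genes. Cox5a, a matrix-side subunit, rose at both doses. It stood at 174, 185, 201, 272 and 196 CPM at 15 mg/kg and at 218, 183, 206, 166 and 171 CPM at 30 mg/kg. It stood at 73.4, 122, 85.1, 43.4 and 70.9 CPM with cisplatin and at 49.6, 84.6, 68.0, 116 and 99.5 CPM in controls. No kidney with 7-HCG overlapped any kidney without it. Over cisplatin the log2 fold change was 1.38 ± 0.24 at 15 mg/kg (adjusted p = 0.00041) and 1.26 ± 0.24 at 30 mg/kg (adjusted p = 0.00147, edgeR). Cox7a2l rose by 1.13 ± 0.21 and 0.88 ± 0.21 at the lower and the higher dose. Cox7a2, the common isoform of its subunit, rose by 1.27 ± 0.30 and 0.82 ± 0.30, and its call at 30 mg/kg (adjusted p = 0.0429, edgeR) was lost in 14 of 21 alternative settings.

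Cox4i1, the ubiquitous isoform of the subunit through which ATP inhibits the oxidase, rose at 15 mg/kg. It stood at 961, 2038, 1207, 2079.8 and 1156 CPM at 15 mg/kg and at 1288, 1007, 1125, 815 and 1068 CPM at 30 mg/kg. It stood at 772, 1010.0, 748, 293 and 363 CPM with cisplatin and at 611, 684, 513, 899.9 and 721 CPM in controls. Replicates 2 and 5 of the 15 mg/kg group were the highest of all, and cisplatin replicates 9 and 10 were the lowest. The log2 fold change over cisplatin was 1.22 ± 0.31 at 15 mg/kg (adjusted p = 0.00429) and 0.73 ± 0.30 at 30 mg/kg (adjusted p = 0.0723, edgeR). Cox5b stood at 384, 862, 504, 713 and 472 CPM at 15 mg/kg and at 454, 425, 437, 359 and 439 CPM at 30 mg/kg. It stood at 432, 585, 414, 267 and 198 CPM with cisplatin and at 389.9, 395, 284, 518 and 421 CPM in controls, so the groups overlapped. Its log2 fold change over cisplatin was 0.63 ± 0.26 at 15 mg/kg and 0.16 ± 0.26 at 30 mg/kg, and neither passed (adjusted p = 0.0639 and 0.685, edgeR).

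The liver-type isoforms Cox6a1 and Cox8a and the common isoform Cox6b1 rose at 15 mg/kg, by 1.25 ± 0.33, 1.23 ± 0.32 and 0.96 ± 0.27 on the log2 scale. Cox7c rose by 0.64 ± 0.24 (adjusted p = 0.0391, edgeR), a call that was lost in 13 of 22 alternative settings. At 30 mg/kg these 4 did not pass, with log2 fold changes of 0.72, 0.79, 0.42 and 0.56. Cox6c and Cox7b passed at neither dose. Per kilobase of transcript, Cox6a1 was the highest complex IV mRNA in controls at 1457 CPM, ahead of Cox8a at 1094 and Cox4i1 at 921.

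Several complex IV subunits have isoforms of other tissues, and most of these were scarce in kidney. Per kilobase, the lung-type and oxygen-sensitive isoform Cox4i2 made up 0.157% ± 0.064 of the pair with Cox4i1 at 15 mg/kg, 0.164% ± 0.033 at 30 mg/kg, 0.271% ± 0.149 with cisplatin and 0.326% ± 0.140 in controls (SD, n = 5 each). The heart and muscle isoform Cox6a2 made up less than 0.1% of the pair with Cox6a1 in every library. The muscle isoform Cox7a1 made up 3.65% ± 0.62 of the pair with Cox7a2 at 15 mg/kg, 2.75% ± 0.51 at 30 mg/kg, 7.71% ± 4.58 with cisplatin and 6.08% ± 2.29 in controls. None of the 3 passed in any comparison between groups. Cox7a1 was the complex IV gene with the smallest p for a lower level at 30 mg/kg than with cisplatin (-0.44 ± 0.29, adjusted p = 0.257) and than at 15 mg/kg (-0.92 ± 0.29, adjusted p = 0.677, edgeR).

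Cox6b2, the testis isoform of the subunit whose common form is Cox6b1, was called after cisplatin. It stood at 17.4, 164, 10.1, 91.5 and 56.7 CPM at 15 mg/kg and at 11.6, 58.3, 80.4, 50.3 and 62.8 CPM at 30 mg/kg. It stood at 26.4, 68.6, 62.7, 23.5 and 63.0 CPM with cisplatin and at 5.61, 6.99, 4.98, 7.88 and 4.98 CPM in controls. Every kidney of the 3 cisplatin-treated groups lay above every control. Cox6b2 was the only one of the 44 genes whose cisplatin kidneys all lay above the controls, as did 5.88% of all tested genes. Per kilobase it made up 11.3% ± 6.52 of the pair with Cox6b1 at 15 mg/kg, 14.5% ± 6.31 at 30 mg/kg, 18.3% ± 9.52 with cisplatin and 2.46% ± 0.42 in controls (SD, n = 5 each). The log2 fold change of cisplatin over control was 3.00 ± 0.62 (adjusted p = 0.00674, edgeR). Cox6b1 was not called in that comparison. Against cisplatin Cox6b2 was called at neither dose, while Cox6b1 rose at 15 mg/kg, so a lower share of the pair does not show a lower Cox6b2. The authors' deposited log2 fold changes of Cox6b2 over cisplatin were 0.49 (q = 0.569) at 15 mg/kg and 0.12 (q = 0.897) at 30 mg/kg. Over control they were 3.49 and 3.06.

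The 3 kidneys with 7-HCG and the lowest Cox6b2, 15 mg/kg replicates 1 and 3 and 30 mg/kg replicate 1, also had the lowest Lcn2 of their groups. Lcn2, a tubular injury gene, stood at 40.4, 628, 9.83, 651 and 269 CPM at 15 mg/kg and at 13.3, 387, 837, 156 and 178 CPM at 30 mg/kg. It stood at 457, 413, 285, 243 and 423 CPM with cisplatin and at 10.3, 44.4, 22.6, 5.04 and 8.58 CPM in controls. Cox6b2 and Lcn2 were thus both low in the same 3 kidneys with 7-HCG, and the part of injury in the Cox6b2 result was not tested. No marker list for testis was fixed. The Cox6b2 call was lost with the replicate block, without control replicates 2 and 5 and without the 4 libraries highest in adipose markers. In the latter 2 settings the log2 fold change was 2.99 and 2.98 with adjusted p-values of 0.0653 and 0.0642 (edgeR). Over all alternatives it lay between 2.72 and 3.18.

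**Figure D3:**
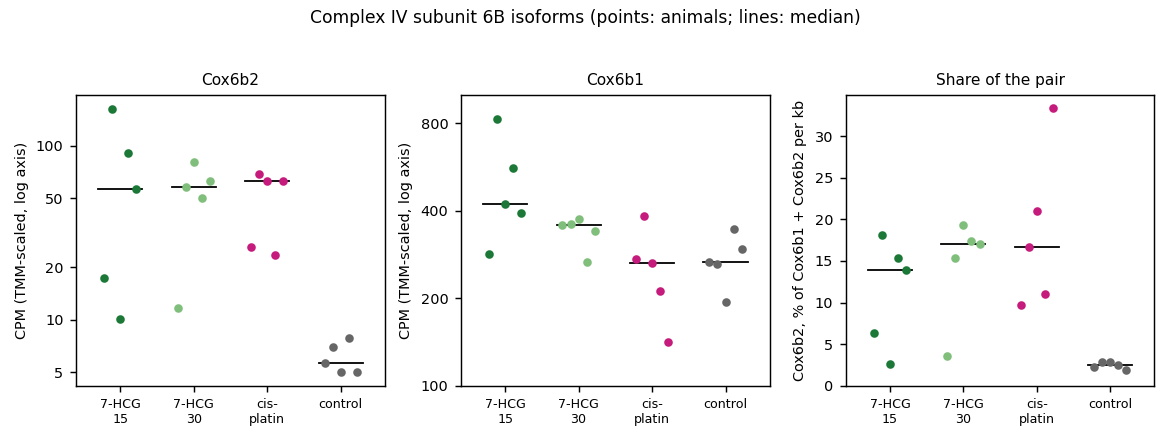
CPM of Cox6b2 and of Cox6b1 on log axes, and the share of Cox6b2 in the pair per kilobase, for each kidney of the 15 mg/kg 7-HCG, 30 mg/kg 7-HCG, cisplatin and control groups, with the group median as a line. All 15 cisplatin-treated kidneys lie above the 5 controls for Cox6b2. The control share stays between 1.85% and 2.90%, a range that also holds replicate 3 at 15 mg/kg with 2.59%.

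Cox8b, the muscle and brown fat isoform of the subunit whose liver-type form is Cox8a, had its highest levels in libraries with adipose markers. It stood at 0, 0.562, 0, 7.72 and 0 CPM at 15 mg/kg and at 0.420, 0, 3.48, 0.132 and 0.443 CPM at 30 mg/kg. It stood at 0, 0.150, 0, 0 and 0 CPM with cisplatin and at 0.249, 6.89, 34.8, 0.121 and 0.0638 CPM in controls. The brown fat gene Cidea stood at 0.0791, 0.401, 0.103, 15.9 and 0.267 CPM at 15 mg/kg and at 0.560, 0, 16.6, 1.27 and 1.17 CPM at 30 mg/kg. It stood at 0, 0.207, 0.142, 0 and 0 CPM with cisplatin and at 0.0832, 17.9, 102, 0 and 0.0638 CPM in controls. Ucp1, another brown fat gene, stood at 81.3 CPM in control replicate 5 and at 6.64 CPM in replicate 5 at 15 mg/kg. In replicate 6 at 30 mg/kg Ucp1 stood at 0.293 CPM. Striated muscle markers summed to 29.9 CPM in replicate 5 at 15 mg/kg and to 0.336 to 1.04 CPM in the other 4 kidneys of that group, and their part was not tested. Cox8b and Cidea were highest in control replicate 5, followed among controls by replicate 2, and the 15 mg/kg and 30 mg/kg groups had their highest values in replicates 5 and 6 of those groups. Cox8b did not pass in cisplatin against control (-7.06 ± 2.33, adjusted p = 0.0514, edgeR), with 1 cisplatin library above 0. DESeq2 called it lower with cisplatin (-7.95, adjusted p = 0.00763), as did edgeR without control replicate 1, 7 or 8 and with the length offset.

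Complex V had the most called genes. Atp5b encodes the catalytic beta subunit, and its promoter is printed above. It stood at 2473, 3158, 3286, 2963 and 2613 CPM at 15 mg/kg and at 3521, 2589, 2076, 2287 and 2261 CPM at 30 mg/kg. It stood at 807, 1222, 851, 895 and 1111 CPM with cisplatin and at 831, 1011, 777, 1342 and 1032 CPM in controls. All 10 kidneys with 7-HCG lay above all 10 without it. Relative to cisplatin the log2 fold change was 1.57 ± 0.22 at 15 mg/kg (adjusted p = 0.000117) and 1.38 ± 0.22 at 30 mg/kg (adjusted p = 0.000508, edgeR). The calls of Atp5b, Sdha and Sdhd at both doses held in every alternative setting that was run.

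Atp5a1 encodes the alpha subunit, which alternates with beta in the catalytic head. It stood at 1713, 1129.5, 1505, 2008 and 1435 CPM at 15 mg/kg and at 2231, 1342, 1338, 1441 and 1379 CPM at 30 mg/kg. It stood at 556, 866, 689.9, 737 and 674 CPM with cisplatin and at 603, 826, 617, 1053 and 926 CPM in controls. Both doses lay above the cisplatin and the control kidneys. Over cisplatin the log2 fold change was 1.15 ± 0.22 at 15 mg/kg and 1.13 ± 0.22 at 30 mg/kg.

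The gamma subunit of the rotor, encoded by Atp5c1, stood at 576, 910.0, 796, 681 and 659 CPM at 15 mg/kg and at 725, 601, 563, 523 and 570.2 CPM at 30 mg/kg. It stood at 309.6, 532, 394, 237 and 246 CPM with cisplatin and at 377, 376, 284, 584 and 525 CPM in controls. The 15 mg/kg kidneys lay above the cisplatin kidneys, and 1 kidney at 30 mg/kg fell just below the highest of them. Atp5c1 rose by 1.07 ± 0.24 and 0.79 ± 0.24 over cisplatin at the lower and the higher dose. The delta and epsilon subunits, encoded by Atp5d and Atp5e, rose at 15 mg/kg by 1.14 ± 0.23 and 1.14 ± 0.30. Without replicate 2 of that group the log2 fold change of Atp5e was 0.69, with an adjusted p of 0.0223 (edgeR). At 30 mg/kg Atp5d had a log2 fold change of 0.63 ± 0.23 and an adjusted p of 0.0465 (edgeR), a call lost in 17 of 21 alternative settings, and Atp5e did not pass.

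The c subunit of the proton-carrying ring is encoded by Atp5g1, Atp5g2 and Atp5g3, which give the same mature protein with different import sequences. All of them rose at 15 mg/kg, Atp5g1 by 1.31 ± 0.31, Atp5g2 by 1.16 ± 0.23 and Atp5g3 by 0.87 ± 0.29. At 30 mg/kg Atp5g2 (0.86 ± 0.23) and Atp5g3 (0.80 ± 0.29) rose, while Atp5g1 had a log2 fold change of 0.57 ± 0.31 with an adjusted p of 0.171 (edgeR). The Atp5g3 call was lost in 9 of 22 settings at 15 mg/kg and in 12 of 21 at 30 mg/kg. Per kilobase, Atp5g1 made up 49.7% ± 13.0 of the pair with Atp5g3 at 15 mg/kg, 39.1% ± 3.71 at 30 mg/kg, 43.2% ± 3.68 with cisplatin and 40.2% ± 3.28 in controls (SD, n = 5 each).

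The peripheral stalk holds the catalytic head still. Its subunit b gene Atp5f1 rose by 1.12 ± 0.22 and 1.14 ± 0.22, and its Atp5o gene, for the oligomycin sensitivity protein, by 1.33 ± 0.26 and 0.81 ± 0.26 over cisplatin at the lower and the higher dose. Atp5f1 did not overlap the cisplatin kidneys at either dose. It stood at 468, 551, 551, 518 and 502 CPM at 15 mg/kg and at 578, 502, 576, 488 and 480.1 CPM at 30 mg/kg. It stood at 235, 348, 270.4, 151 and 188 CPM with cisplatin and at 226, 262, 183, 359 and 319 CPM in controls. The Atp5o row of the table covers chr16:91684398-91931687, a span that also holds Donson, Cryzl1 and Itsn1, so reads of those genes may be included. The Atp5o call at 30 mg/kg was lost in 7 of 21 settings. Other stalk genes were Atp5h, which rose at 15 mg/kg by 0.58 ± 0.21 with a call lost in 13 of 22 settings, and Atp5j, which passed at neither dose.

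The membrane subunits that shape dimers of the enzyme, encoded by Atp5j2, Atp5k and Atp5l, rose at 15 mg/kg by 0.96 ± 0.27, 0.95 ± 0.29 and 1.08 ± 0.27. Without replicate 2 at 15 mg/kg the Atp5k value was 0.51 with an adjusted p of 0.0665 (edgeR), and its call was lost in 7 of 22 settings. None of these 3 passed at 30 mg/kg, where their log2 fold changes were 0.31, 0.06 and 0.64. Atp5s was counted with complex V by its symbol alone. It had the lowest level of the genes so counted and was the only one with a negative sign against cisplatin at both doses (-0.13 ± 0.17 and -0.17 ± 0.17, neither called). It averaged 11.8 ± 2.08 CPM at 15 mg/kg, 11.5 ± 1.21 at 30 mg/kg, 12.9 ± 1.26 with cisplatin and 12.1 ± 2.34 in controls (SD, n = 5 each).

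No gene of the 44 passed between the doses. Of all 14858 genes, 0% passed in edgeR's quasi-likelihood test of 30 mg/kg against 15 mg/kg, 7.17% had an unadjusted p below 0.05, and DESeq2 called 1 gene, which was not among the 44. The sign was negative for 38 of the 44 and the median log2 fold change was -0.34, with an unadjusted p below 0.05 for 9 genes. Without replicates 2 and 5 at 15 mg/kg the median was -0.080 and 11 signs were positive, and with the length offset it was -0.083 and 14 were positive. The gene with the smallest p was Cox7a1 in complex IV, Atp5e in complex V (-0.95 ± 0.30, adjusted p = 0.677) and Uqcr11 in complex III (-0.72 ± 0.28, adjusted p = 0.677, edgeR). A call at 15 mg/kg without a call at 30 mg/kg is therefore not shown to be a difference between the doses.

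The genes called at 30 mg/kg were mostly those with longer transcripts. Of 14 genes with a principal transcript of at least 1000 nt, 12 rose at 15 mg/kg and 11 at 30 mg/kg against cisplatin. Of 30 with a shorter transcript, 20 rose at 15 mg/kg and 6 at 30 mg/kg. The median log2 fold change of the longer group was 1.12 at 15 mg/kg and 0.99 at 30 mg/kg, and that of the shorter group was 0.98 and 0.48. Over the 44 genes Spearman's rho between transcript length and fold change was 0.126 at 15 mg/kg and 0.454 at 30 mg/kg, and over 14700 tested genes with a length it was -0.349 and -0.219. These are descriptions across genes, which share their libraries and are not independent replicates. Among all genes, 39.3% of the shorter and 17.3% of the longer rose at 15 mg/kg, and 16.9% and 14.5% at 30 mg/kg.

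**Figure D4:**
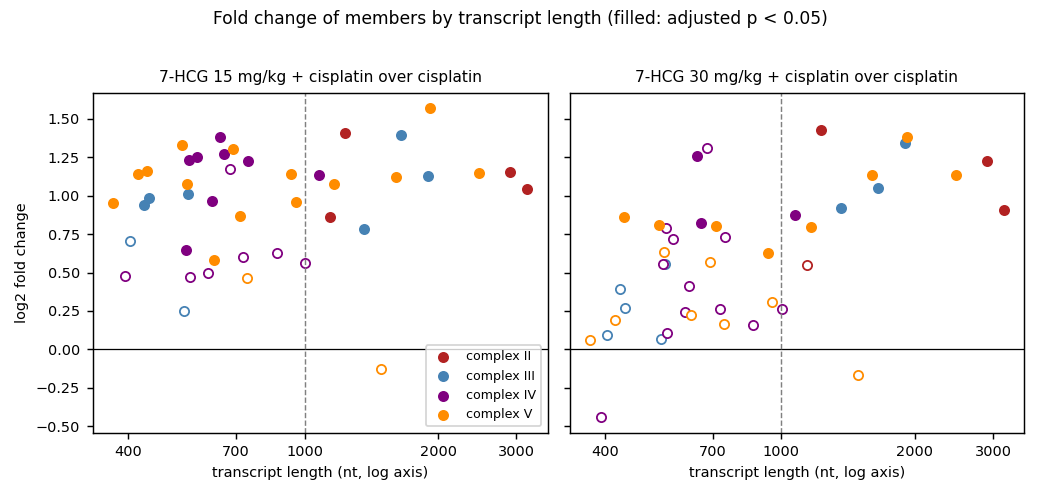
Log2 fold change over cisplatin of 43 tested genes against the length of the principal transcript on a log axis, at 15 mg/kg 7-HCG on the left and 30 mg/kg 7-HCG on the right, with colours for the complexes, filled points for an adjusted p below 0.05 and a dashed line at 1000 nt; Cox8b is not drawn. At 30 mg/kg 11 of 14 points right of the line are filled.

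Libraries of a group differed in the level of the shorter transcripts. Relative to the control mean, the median log2 level of the 26 shorter genes above 10 CPM was 1.65 and 1.24 in replicates 2 and 5 at 15 mg/kg, and between 0.27 and 0.68 in the other 3 of that group. It was between 0.23 and 0.67 at 30 mg/kg, -0.60 and -0.58 in cisplatin replicates 9 and 10, and between 0.07 and 0.53 in the other 3 cisplatin kidneys. The 14 longer genes lay between 0.83 and 1.10 at 15 mg/kg, between 0.63 and 1.28 at 30 mg/kg and between -0.36 and 0.26 with cisplatin. Over all genes above 10 CPM, the 658 shorter exceeded the 8009 longer by 1.12 and 0.84 in the same 2 libraries at 15 mg/kg. Without those 2 libraries 17 of the 44 genes rose at 15 mg/kg over cisplatin, and with the trend of length removed from each library 22 rose and 1 fell. Both settings were chosen after the data were seen, and their calls over all tested genes are not set beside these counts. RNA quality values per library were not analysed here, and their part was not tested.

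After cisplatin alone few of these genes were called. In edgeR's quasi-likelihood test only Cox6b2 of the 44 rose in cisplatin kidneys against controls and none fell, while 8.41% of all tested genes rose and 5.01% fell. The median log2 fold change of the 44 was -0.09, and 35 had a negative sign. Without cisplatin replicates 9 and 10 it was 0.09 with 28 positive signs, and with library totals alone -0.32 with 1. The gene with the smallest p of complex II was Sdhc (-0.17 ± 0.23, adjusted p = 0.671), and in complex III those with the smallest p in each direction were Uqcrc2 (-0.56 ± 0.28, adjusted p = 0.201) and Uqcrh (0.12 ± 0.26, adjusted p = 0.801, edgeR). In complex V they were Atp5c1 (-0.32 ± 0.24, adjusted p = 0.397) and Atp5d (0.16 ± 0.23, adjusted p = 0.685, edgeR). A p above the threshold does not show that these levels were alike.

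Against controls the counts were close to those against cisplatin, with the control animals in place of the cisplatin animals and the same 7-HCG animals. At 15 mg/kg 31 of 44 rose and none fell, where 23% of all tested genes rose and 22.2% fell. At 30 mg/kg 16 rose and none fell, where 18.6% of all genes rose and 15.6% fell. By complex, 4, 5, 9 and 13 genes of complexes II to V rose at 15 mg/kg and 3, 4, 4 and 5 at 30 mg/kg. Groups did not overlap for 18 genes at 15 mg/kg, against 16.2% of all genes, and for 16 genes at 30 mg/kg, against 15.9%. Markers of several cell types differed in the same comparisons. All 5 markers of red blood cells, 4 of endothelium, 5 of fibroblasts and mural cells and 4 of T and NK cells fell at both doses. The endothelial markers summed to 39.8 to 101 CPM at 15 mg/kg, 20.9 to 124 at 30 mg/kg and 166 to 642 in controls. Those of red blood cells summed to 0.454 to 69.3 CPM at 15 mg/kg, 0.403 to 0.997 at 30 mg/kg and 138 to 662 in controls. Of 11 proximal tubule markers 5 rose at 15 mg/kg and 3 at 30 mg/kg. The part of these markers in the counts was not tested.

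The genes with the smallest p against controls were largely those already named. Sdhd rose by 1.40 ± 0.20 at 15 mg/kg and 1.42 ± 0.20 at 30 mg/kg, Uqcrc1 by 1.26 ± 0.24 and 0.91 ± 0.24, and Atp5b by 1.54 ± 0.22 and 1.35 ± 0.21. In complex IV Cox7a2l led at 15 mg/kg (1.18 ± 0.21, adjusted p = 0.000325) and Cox5a at 30 mg/kg (1.18 ± 0.24, adjusted p = 0.00154, edgeR). The negative signs with the smallest p were those of Cox8b and Atp5s at both doses and of Uqcrb at 30 mg/kg (-0.08 ± 0.23), and none of these was called. Without control replicates 2 and 5, 18 genes rose at 15 mg/kg and 8 at 30 mg/kg, and the share of all tested genes in that setting is not given.

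The mitochondrial genome's own mRNAs went the other way. All 13 fell at 15 mg/kg and at 30 mg/kg against cisplatin, with median log2 fold changes of -4.23 and -3.92. Against controls 13 fell at 15 mg/kg and 12 at 30 mg/kg, with medians of -2.76 and -2.49. Cisplatin against control called none of them. They include partners of the genes described here, such as mt-Cytb of complex III, mt-Co1 of complex IV and mt-Atp6 of complex V. Leaving the 13 out of the table left 33 of the 44 nuclear genes higher at 15 mg/kg and 15 at 30 mg/kg than with cisplatin. The share of all tested genes in that setting is not given.

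**Figure D5:**
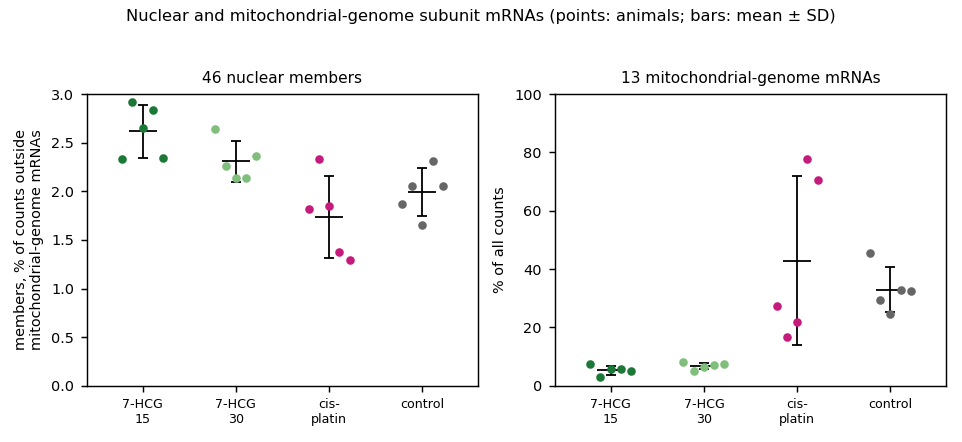
The 46 nuclear mRNAs of complexes II to V as a percentage of the counts outside the mitochondrial genome's mRNAs, and the 13 mitochondrial-genome mRNAs as a percentage of all counts, per kidney with group mean and SD for the 15 mg/kg 7-HCG, 30 mg/kg 7-HCG, cisplatin and control groups. The nuclear share averages 2.62% and 2.31% with 7-HCG against 1.73% with cisplatin, and the mitochondrial share 5.33% and 6.82% against 42.8%.

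Genes that work with these subunits were taken from lists of the pathway. The shares of all tested genes that rose or fell, to be read beside these counts, are those given above for the same comparisons, 18.9% and 18.6% at 15 mg/kg and 14.7% and 13.2% at 30 mg/kg. Of 6 subunits and partners outside the rule, 5 rose at 15 mg/kg and 3 at 30 mg/kg against cisplatin. Cyc1, the cytochrome c1 of complex III, rose by 1.42 ± 0.26 and 1.07 ± 0.26, and Ndufa4, a subunit of complex IV, by 1.29 ± 0.31 and 0.97 ± 0.31 at the lower and the higher dose, a call lost in 9 of 21 settings at 30 mg/kg. Of the carriers that bring ADP and phosphate to complex V, 1 of 3 rose at both doses, the ADP/ATP carrier Slc25a5 by 1.20 ± 0.27 and 1.11 ± 0.27.

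Assembly factors were counted by complex, beside 18.9% of all genes that rose at 15 mg/kg and 14.7% at 30 mg/kg. Against cisplatin 1 of 4 factors of complex II rose at both doses, Sdhaf4 by 1.17 ± 0.24 and 0.92 ± 0.24. For complex III 2 of 6 rose at 15 mg/kg and 1 at 30 mg/kg, where Uqcc1 rose by 0.79 ± 0.19 and 0.72 ± 0.19. For complex IV 11 of 23 tested factors rose at 15 mg/kg and 9 at 30 mg/kg, and Cox16 rose by 1.16 ± 0.20 and 1.25 ± 0.20. For complex V 3 of 4 rose at 15 mg/kg and 2 at 30 mg/kg, and Tmem70 rose by 0.60 ± 0.17 and 0.73 ± 0.17. No factor of the 4 lists fell at either dose.

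Of the 12 regulators of mitochondrial biogenesis 1 rose and 3 fell at 15 mg/kg against cisplatin, and 1 rose and 1 fell at 30 mg/kg, where the shares of all genes were 18.9% and 18.6% at the lower dose and 14.7% and 13.2% at the higher. Tfam, which packages and transcribes the mitochondrial genome, rose by 0.50 ± 0.18 and 0.80 ± 0.18 at the lower and the higher dose. The coactivator gene Ppargc1b fell against cisplatin at both doses, with a log2 fold change of -2.20 ± 0.58 at 30 mg/kg, and it rose in cisplatin against control (1.95 ± 0.57, adjusted p = 0.0298, edgeR). Gabpb1, a subunit of GABP (-0.80 ± 0.18), and Tfb2m, a mitochondrial transcription factor (-0.42 ± 0.16), fell at 15 mg/kg. Nrf1, Gabpa, Esrra and Ppargc1a did not pass against cisplatin at either dose. Other settings changed several of these calls: that of Tfam at 15 mg/kg was lost in 10 of 22 alternatives, that of Tfb2m in 14 of 22, and that of Ppargc1b in cisplatin against control in 12 of 22. Without cisplatin replicate 10 the Ppargc1b values were -0.81 at 15 mg/kg and -1.02 at 30 mg/kg against cisplatin and 0.76 in cisplatin against control, with adjusted p-values of 0.127, 0.0731 and 0.286 (edgeR).

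In the authors' deposited table, 31 of 45 genes with a value had a positive fold change with q below 0.05 for 15 mg/kg over cisplatin, and 17 of 44 for 30 mg/kg over cisplatin, and none a negative one. The share of all genes with such a q is not given beside these counts. They include Cox8b, with 5.21 (q = 0.019) at 15 mg/kg and 4.17 (q = 0.0113) at 30 mg/kg. Cox8b was not called against cisplatin at either dose in the edgeR fit. In the authors' deposited table the column named for control and cisplatin runs as control over cisplatin. Cox8b was positive there (7.51, q = 0.000121) and Cox6b2 negative (-2.965, q = 7.16e-15).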

How the data were processed

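Polyadenylated mRNA of 20 kidneys was sequenced as paired reads. The deposited table holds read counts per gene for each library, with no normalization per the file headers. FastQC, Trimmomatic, HISAT2, StringTie and DESeq2 and the builds GRCm38 and mm10 are named, without roles, per the submitters' processing notes, while neither the read counter nor its use of strand is given in the sources used here, nor the release of the annotation. The authors' deposited log2 fold changes and p-values and q-values come from their own group comparisons, of unstated method, and were used only where named.

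The counts were scaled by TMM and fitted in 1 model of the 4 groups with edgeR 4.0.16 (R 4.3.3), after its filter on low counts by group. The robust quasi-likelihood test was used with Benjamini-Hochberg adjustment over 14858 genes, and a call needs an adjusted p below 0.05. Errors of fold changes are SE, taken as the absolute log2 fold change divided by the square root of its F statistic. The log CPM behind the length offset used a prior count of 2. DESeq2 1.42.0, limma voom (limma 3.58.1), RLE size factors, library totals, a replicate block and libraries left out were alternatives, and the script was tested on simulated data. A length offset and the 15 mg/kg group without replicates 2 and 5 were added after the data were seen. Library totals of 10714532 to 49602115 counts and TMM scaling set the lowest levels, as 3 counts stand for up to 0.375 CPM. Within-group library pairs differed by a chi-square per degree of freedom of at least 27.08, so none was counted as a repeat. The labels do not describe pooling, and each library was taken as 1 animal. The p-values set a difference between groups against the spread between libraries within the 4 groups.

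Values in every library or full statistics were given for fixed core subunits and isoform sets and for the gene with the smallest p in each direction, complex and comparison. The genes and lists were chosen with earlier results of these data known. Transcript lengths came from GENCODE on GRCm38. Where rows overlap another gene, as Cox4i1 does Emc8, Cox6c does Vps13b, Atp5j does Gabpa, and Sdha and Uqcrh do processed pseudogenes, shared reads are uncertain.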

Additional observations from a re-analysis of the deposited data

Results flagged for a closer look

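In 17 of 176 sets of 5 animals, or 9.66%, the highest or lowest kidney passed Dixon's 95% limit. That limit sets the gap to the nearest neighbour against the group's range, and normally distributed values pass it in about 1 of 20 sets. The CPM were not transformed and the sets share their libraries, so the 9.66% does not show an excess over chance. Replicate 1 at 30 mg/kg lay beyond that limit, as the highest, for 7 genes, Atp5a1 at 2231 CPM, Cox7a1 at 8.07, Sdhb at 596, Sdhc at 519, Sdhd at 393, Uqcrc1 at 1114 and Uqcrc2 at 365. The same kidney had the highest summed proximal tubule markers of all, 17403 CPM, and an Lcn2 of 13.3 CPM, and the part of either was not tested.

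Replicate 2 at 15 mg/kg was high for Atp5k at 144 CPM and Cox6c at 821 CPM, and low for Sdha at 367 CPM and Uqcrfs1 at 251 CPM. Both high genes have transcripts shorter than 1000 nt and both low genes longer ones. Replicate 5 at 15 mg/kg was high for Cox5a at 272 CPM, Sdhc at 570.2 CPM and Cox8b at 7.72 CPM. Cox8b was also set apart at 3.48 CPM in replicate 6 at 30 mg/kg, at 0.15 CPM in cisplatin replicate 3, where the other 4 cisplatin kidneys were at 0, and at 34.8 CPM in control replicate 5.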

How the results depend on the processing

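With library totals alone the counts of higher genes were 19 at 15 mg/kg and 11 at 30 mg/kg against cisplatin, and 8 and 5 against control; under it the median log2 fold change of all genes was 0.23, 0.39, -0.14 and 0.03 in those comparisons and -0.35 in cisplatin against control, and with TMM it was -0.05, 0.00, -0.06, 0.01 and -0.01. Without cisplatin replicates 9 and 10, 10 genes were called at 30 mg/kg against cisplatin. Without replicates 2 and 5 of the 15 mg/kg group, 17 were called at that dose against cisplatin and 17 against control, of which 1 was lower. Without control replicates 2 and 5 the counts against control were 18 and 8 at 15 and 30 mg/kg and 0 for cisplatin, and without the 4 libraries highest in adipose markers they were 12, 7 and 0. The length offset gave 20 at 15 mg/kg against control. In cisplatin against control DESeq2 and the length offset called 2 genes each. Leaving out 1 library at a time gave between 29 and 36 calls for the lower dose and between 13 and 25 for the higher dose against cisplatin, between 26 and 35 and between 12 and 19 against control, and 1 to 2 for cisplatin against control, with 2 without control replicate 1, 7 or 8. None of the 44 genes was called between the doses under any alternative run. Calls over all tested genes changed with the setting as well. In cisplatin against control they were 1994 in the main fit and 883 with library totals alone. The other counts here are not set beside the calls over all genes. The cause of these changes was not tested.

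Single values changed sign as follows. In cisplatin against control, library totals gave Atp5d -0.14 and Uqcrh -0.064, and leaving out 1 library gave Uqcrh -0.066 to 0.25. Against cisplatin, library totals gave Atp5s 0.12 at 15 mg/kg and 0.17 at 30 mg/kg and Cox7a1 0.00058 at 30 mg/kg. The length offset gave Atp5h -0.0054 at 15 mg/kg and Cox5b -0.12 at 30 mg/kg. Cox5b at 30 mg/kg was -0.19 without cisplatin replicates 9 and 10 and -0.0016 to 0.37 with 1 library left out. Against control at 15 mg/kg, Atp5s was 0.062 without replicates 2 and 5 of that group and -0.14 to 0.065 with 1 library left out. Cox8b was 3.52 at 15 mg/kg and 2.61 at 30 mg/kg without control replicates 2 and 5, and 0.81 at 30 mg/kg without the 4 libraries highest in adipose markers.

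No label gives the replicate numbers as a pairing, so the main fit held no block. Of 15 pairs of libraries with the same replicate number in different groups, 3 correlated above 0.1 (range -0.309 to 0.234). Pairs with different numbers are not given beside them, so these values cannot show whether the numbers mark a pairing. With the replicate block 6 genes were called at 15 mg/kg and 3 at 30 mg/kg against cisplatin, and 0 in cisplatin against control. In cisplatin against control the block called 17 of all tested genes, where the main fit called 1994. With the block Sdhc was 0.12 in cisplatin against control, Cox5b was -0.021 and Cox7a1 0.025 at 30 mg/kg against cisplatin, and Cox8b was 0.15 at 30 mg/kg against control. In cisplatin replicate 10, 3 counts stand for 0.375 CPM, which limits Cox6a2, Cox7b2, Cox8b and Cox8c.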
